A study of Homo sapiens with 8 samples.

Results

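The 10 genes examined were CCN1, CCN2, ANKRD1, AMOTL1, AMOTL2, LATS2, AJUBA, TEAD1, YAP1 and WWTR1. They were chosen by name as the YAP, TAZ and TEAD genes and their listed pathway targets, out of 86369 gene identifiers in the count table. Of the 10, 9 had enough counts to be tested, among 13840 tested genes, and AMOTL1 did not. HepG2, an established liver cancer line, received by lipofection an siRNA against NAT10, an RNA cytidine acetyltransferase (the siNAT10 group), or a negative control siRNA (the siCtrl group). The 3' ends of mRNA were counted 2 days later. Each group had 4 libraries. Replicates 1 and 2 of both groups were in batch 1 and replicates 3 and 4 in batch 2, and the labels say no more of the batches than their number. The siRNA sequences are not given in the sources used here, and the labels do not say whether replicates were separate cultures, so p-values measure only the spread between these libraries, which may be technical.

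YAP1 and WWTR1 (the gene for TAZ) encode transcriptional coactivators that have no DNA-binding domain and act mainly through TEAD factors such as TEAD1. The Hippo kinases LATS1 and LATS2 phosphorylate YAP and TAZ, which keeps them in the cytoplasm, and angiomotin-family and Ajuba-family proteins bind components of this cascade at cell junctions. In the liver the pathway is known for its control of organ size and of hepatocyte growth. CCN1 and CCN2 encode secreted matricellular proteins that bind integrins, and with ANKRD1 they are the targets most often used to read YAP and TAZ activity. LATS2 and AMOTL2 are also targets, and their products restrain YAP in a feedback loop.

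By the GENCODE 44 annotation of GRCh38, CCN1 lies at chr1:85580761-85584589, CCN2 at chr6:131948176-131951372, ANKRD1 at chr10:90912096-90921087 and AMOTL2 at chr3:134355347-134375479. AMOTL1 lies at chr11:94706431-94876748, LATS2 at chr13:20973036-21061586 and AJUBA at chr14:22971177-22982551. TEAD1 lies at chr11:12674421-12944737, YAP1 at chr11:102110447-102233424 and WWTR1 at chr3:149517235-149736714. No exon of another GENCODE 44 gene covered the last 500 bases of the canonical transcript of any of the 10 genes, the stretch where a 3' end method places most of its reads. GENCODE 44 matched 61458 of the 86369 identifiers counted, so overlaps with the unmatched ones could not be seen. The search also found no overlap for ACTG1, whose counts were low (below), so it does not show that counts were free of loss. For ZYX, which had no counts (below), EPHA1 on the other strand covered 48 of the last 500 bases. Whether this overlap bore on the ZYX count was not tested.

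TEAD factors bind the 6-base core GGAATG, whose reverse complement reads CATTCC. The RefSeq promoter windows of GRCh38.p14, 250 bases before to 50 after a start, were searched for it on both strands. Windows were found for 8 of the 10 genes, with CCN1 and TEAD1 unmatched, and 6 of the 8 had at least 1 match in a window. Some genes had more than 1 window, and counted by window 6 of 11 held a match. Of all 35116 windows, 14.0% held the core, 1.37% held it at least 2 times and 0.128% at least 3 times. CCN2 had 3 matches, 169, 104 and 95 bases before its start, and ANKRD1 had 2, at 220 and 128 bases. The stretches of CCN2 and ANKRD1 are shown because these windows held more than 1 match, and that of AMOTL2 because it is a feedback target with a match on the opposite strand, 69 bases before its second annotated start. Each stretch is written 5' to 3' in the direction of the gene, with the matches in capitals.

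CCN2 (chr6:131951452-131951551, minus strand): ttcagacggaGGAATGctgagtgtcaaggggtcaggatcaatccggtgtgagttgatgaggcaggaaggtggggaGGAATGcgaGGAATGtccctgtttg

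ANKRD1 (chr10:90921200-90921317, minus strand): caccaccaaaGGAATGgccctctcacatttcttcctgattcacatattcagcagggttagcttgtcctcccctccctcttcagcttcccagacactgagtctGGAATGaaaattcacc

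AMOTL2 (chr3:134374501-134374526, minus strand): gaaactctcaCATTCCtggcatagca

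Single matches also lay 162 bases before the start of YAP1, 59 bases before the second start of AJUBA and 9 bases after the start of LATS2. The windows of WWTR1 and AMOTL1 held none. A match describes the letters of the window and shows no binding. Among tested genes, the 125 with 2 or more matches had a median log2 fold change of -0.04 and 3 calls. The 1321 with 1 match had a median of 0.0013 and 43 calls, and the 8179 with no match had 0.00012 and 185 calls.

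Libraries held 9731718 to 27977110 counts, and the siNAT10 libraries of batch 2 were the shallowest. Levels are given as CPM, counts scaled to library size with TMM factors. NAT10 itself averaged 52.6 ± 17.2 CPM under the control siRNA against 16.9 ± 5.04 CPM after knockdown (SD, n = 4 in each), without overlap, and its log2 fold change was -1.66 (edgeR quasi-likelihood test, adjusted p 2.0e-05). All 8 hepatocyte markers examined had counts, with summed levels of 9387 to 9868 CPM in siCtrl and 7555 to 8134 CPM in siNAT10, which did not overlap. ALB, TF and AFP made up most of this sum, with log2 fold changes of -0.37, -0.49 and -0.28, and TF was the 1 hepatocyte marker called (edgeR adjusted p 0.023). FGB (0.37) and HNF4A (0.09) had positive estimates, and APOA1 was at -0.0083. TTR was at -0.30, and SERPINA1, with a mean of only 4.97 CPM, at -0.46. Of the cholangiocyte markers KRT19, SOX9 and EPCAM were present and KRT7 and CFTR were at or under 1 CPM, with sums of 937 to 1064 CPM in siCtrl and 869 to 1035 CPM in siNAT10. Among mesenchymal markers 6 of 7 stayed at or under 1 CPM (sums of 0.578 to 1.38 and 0.293 to 1.25 CPM) with COL1A2, COL3A1, DCN, LUM and VIM at 0. All 5 endothelial markers stayed at or under 1 CPM (sums of 0.230 to 0.796 and 0 to 0.278 CPM) with KDR and TEK at 0. The immune markers PTPRC and CD3E were at 0. The immune sums of 409 to 556 CPM in siCtrl and 333 to 388 CPM in siNAT10 did not overlap and came mostly from LYZ. Of 3 tested immune markers 2 had negative estimates and 1 a positive one. LYZ was the 1 called (log2 fold change -0.42, edgeR adjusted p 0.043). What part these marker differences had in the results was not tested, and in bulk RNA fewer cells of a kind and less RNA per cell cannot be told apart. ZYX was at 0 in every library and ACTG1 between 0.230 and 1.73 CPM, although both encode cytoskeletal proteins of most cells, so a low count in this table does not show that a gene was silent.

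Counts of a 3' end library do not grow with transcript length, but ZYX and ACTG1 show that genes can be counted unequally, so the order of CPM levels given next describes this table and not transcript abundance. Averaged over the 8 libraries, CCN2 stood highest at 306.7 CPM and CCN1 next at 218.7 CPM, and their ranges overlapped widely. YAP1 averaged 69.8 CPM and AJUBA 53.9 CPM, and their order turned with batch: YAP1 was at 70.95 and AJUBA at 35.1 CPM in batch 1, and at 68.6 and 72.6 CPM in batch 2. ANKRD1 averaged 35.02 CPM and WWTR1 33.8 CPM, with WWTR1 above ANKRD1 in each of the batch 1 libraries and below it in each of the batch 2 libraries. LATS2 (25.3 CPM) and TEAD1 (20.5 CPM) followed. AMOTL2 averaged 6.19 CPM, on 75 to 154 counts per library, and AMOTL1 reached at most 0.187 CPM, on 14 counts in all. The coactivator YAP1 was above its paralog WWTR1 in every library.

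**Figure D1:**
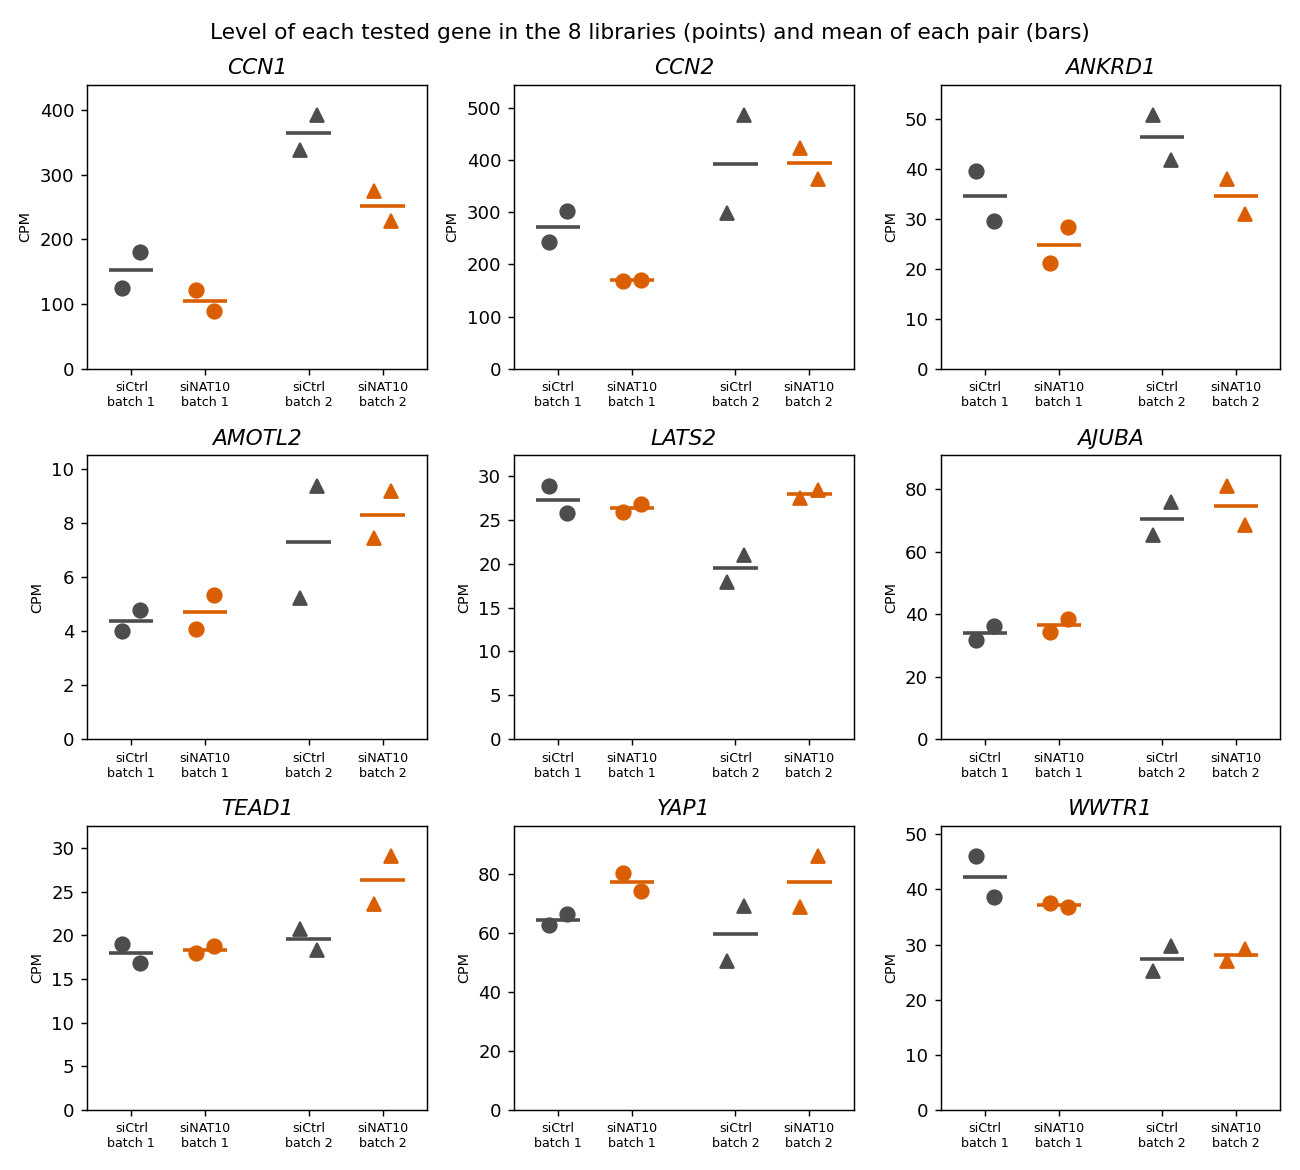
Level of each of the 9 tested genes (CPM, linear axis from 0) in each library, with siCtrl in grey, siNAT10 in orange, batch 1 as circles, batch 2 as triangles and the mean of each pair as a bar. The siNAT10 points of CCN1 and ANKRD1 lie below both siCtrl points of their batch, and CCN1, AJUBA and WWTR1 separate fully by batch.

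The first comparison asked which of these genes differed when NAT10 was depleted. CCN1 fell, to 69.0% of the siCtrl level, and was the 1 gene of the 9 that passed the test. ANKRD1 and CCN2, the other 2 classical targets, also had negative estimates without passing. YAP1, TEAD1, LATS2, AMOTL2 and AJUBA had positive estimates and none of them passed. Over all tested genes 1.46% were called lower, 0.816% higher and 2.28% in either direction at an adjusted p under 0.05 (edgeR quasi-likelihood test), against 1 of 9 lower and 0 of 9 higher here. The genes were chosen with earlier results of these data known, so these counts give no independent support. At an unadjusted p under 0.05 there were 3 of 9, CCN1, ANKRD1 and YAP1, beside 15.7% of all tested genes. DESeq2 called 2 of the 9, CCN1 and ANKRD1, beside 5.12% of the 11693 genes to which it gave an adjusted p. The median log2 fold change of the 9 was 0.10, beside -0.0024 over all tested genes.

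CCN1, whose product is a matricellular integrin ligand, stood at 124, 181, 339 and 392 CPM in siCtrl replicates 1 to 4. In siNAT10 replicates 1 to 4 it stood at 121, 89.5, 274 and 229 CPM. Both siNAT10 libraries were below both siCtrl libraries within each batch, by a narrow margin in batch 1, while the batch 2 siNAT10 libraries lay above all batch 1 libraries. The log2 fold change was -0.54 ± 0.13 (SE, edgeR quasi-likelihood test with batch, adjusted p 0.042), from 258.9 ± 127 CPM to 178.5 ± 87.5 CPM (SD, n = 4 in each). The estimate was -0.53 in batch 1 alone and -0.53 in batch 2 alone. When siRNA labels were exchanged within batches, the exact permutation p for log2 CPM (two-sided) was 0.056, and none of the 36 arrangements can give a smaller one. Over all 70 arrangements, which ignore batch, the exact permutation p was 0.37.

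The call of CCN1 lay at the threshold. In fits that left out 1 library each, the log2 fold change ran from -0.63 to -0.42 and the edgeR adjusted p from 0.037 to 0.18. It stayed under 0.05 without siCtrl replicate 1 (0.037) or siCtrl replicate 3 (0.046). The call was lost without siCtrl replicate 2 (adjusted p 0.17, edgeR), siCtrl replicate 4 (0.11) or any 1 of siNAT10 replicates 1 to 4 (0.055, 0.18, 0.075 and 0.088). Without the batch term the edgeR adjusted p was 0.82, and with RLE size factors it was 0.0505.

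**Figure D2:**
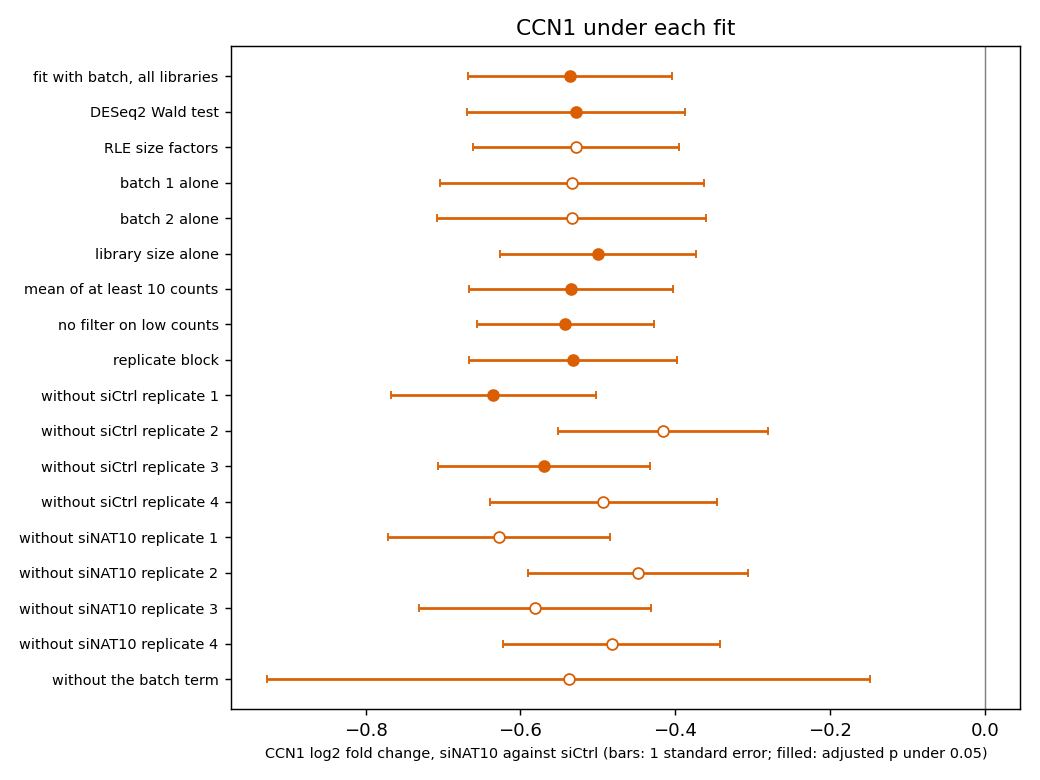
CCN1 log2 fold change, siNAT10 against siCtrl, in the fit with batch and in each alternative fit, with bars of 1 standard error and filled points where the adjusted p was under 0.05. All 18 estimates lie below 0, and the fit without the batch term has the widest bar.

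CCN2, the close relative of CCN1, stood at 242, 302, 298 and 486 CPM in siCtrl replicates 1 to 4 and at 169, 169.6, 424 and 364 CPM in siNAT10 replicates 1 to 4. The siNAT10 libraries were below both siCtrl libraries in batch 1 and between them in batch 2. The log2 fold change was -0.34 ± 0.16 (SE, edgeR adjusted p 0.32). Within batches it was -0.68 in batch 1, which passed in that batch alone (edgeR adjusted p 0.021), and 0.0097 in batch 2. The interaction of batch and siRNA had a log2 size of 0.69 ± 0.28 (SE) and an unadjusted p of 0.027 in edgeR, with an adjusted p of 1.00. With 1 library left out the CCN2 interaction ran from 0.37 (without siCtrl replicate 3) to 1.08 (without siCtrl replicate 4), with no adjusted p under 0.05 in edgeR. The siRNA estimate of CCN2 ran from -0.53 without siCtrl replicate 3, where it passed (edgeR adjusted p 0.034), to -0.20 without siCtrl replicate 2 (0.62).

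ANKRD1, an ankyrin-repeat cofactor of the nucleus and the sarcomere, stood at 39.5, 29.6, 50.7 and 41.8 CPM in siCtrl replicates 1 to 4. The siNAT10 values were 21.2, 28.4, 37.96 and 30.99 CPM. As for CCN1, both siNAT10 libraries were below both siCtrl libraries of their batch, in batch 1 by a narrow margin. The log2 fold change was -0.45 ± 0.13 (SE, edgeR adjusted p 0.083), with -0.48 in batch 1 and -0.42 in batch 2. DESeq2 gave -0.44 with an adjusted p of 0.043, so the call depends on the test. CCN1 and ANKRD1 were thus the 2 of 9 genes with all siNAT10 libraries below those of siCtrl within batches, an arrangement seen in 7.90% of tested genes, and 0 of 9 showed the reverse, seen in 6.76%.

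The feedback genes and the junctional adaptor did not pass. LATS2, a Hippo kinase, stood at 28.9, 25.7, 17.9 and 21.0 CPM in siCtrl replicates 1 to 4 and at 25.9, 26.8, 27.5 and 28.4 CPM in siNAT10. The siCtrl libraries of batch 2 were the low ones, and the other 6 libraries lay between 25.7 and 28.9 CPM. Its log2 fold change was 0.22 ± 0.13 (SE, edgeR adjusted p 0.43), with -0.05 in batch 1 and 0.53 in batch 2, and it was 0.13 without siCtrl replicate 3. The LATS2 interaction of batch and siRNA was 0.58 ± 0.23 (SE), with an unadjusted p of 0.021 in edgeR and an adjusted p of 1.00. CCN2 and LATS2 were the 2 of 9 genes with an unadjusted interaction p under 0.05, a level reached by 3.04% of tested genes. In edgeR 0 of the 9 genes and 0 of all tested genes (0%) had an interaction with an adjusted p under 0.05, and in DESeq2 0 of the 9 and 1 of all tested genes (0.00723%) did.

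AMOTL2, an angiomotin-family scaffold that binds YAP, ranged from 4.00 to 9.39 CPM in siCtrl and from 4.10 to 9.19 CPM in siNAT10, so the groups overlapped almost entirely. Its log2 fold change was 0.16 ± 0.20 (SE, edgeR adjusted p 0.75), and it was 0.0096 without siCtrl replicate 3 and 0.34 without siCtrl replicate 4. AJUBA, a LIM-domain protein that binds LATS kinases, stood at 31.6, 36.1, 65.3 and 75.8 CPM in siCtrl and 34.4, 38.4, 81.0 and 68.3 CPM in siNAT10. Its libraries overlapped between the siRNA groups in both batches, with a log2 fold change of 0.10 ± 0.10 (SE, edgeR adjusted p 0.72).

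The effectors themselves did not pass either. YAP1 stood at 62.7, 66.4, 50.4 and 69.2 CPM in siCtrl replicates 1 to 4 and at 80.5, 74.2, 68.8 and 86.0 CPM in siNAT10. Both siNAT10 libraries lay above both siCtrl libraries in batch 1, and in batch 2 siNAT10 replicate 3 lay just under siCtrl replicate 4. The log2 fold change of YAP1 was 0.32 ± 0.12 (SE, edgeR adjusted p 0.18). TEAD1, the DNA-binding partner, ranged from 16.9 to 20.8 CPM in siCtrl and stood at 17.95, 18.8, 23.5 and 29.04 CPM in siNAT10. Its high values were the batch 2 siNAT10 libraries, and its log2 fold change was 0.22 ± 0.13 (SE, edgeR adjusted p 0.42), or 0.13 without siNAT10 replicate 4. WWTR1, which encodes TAZ, ranged from 25.2 to 46.0 CPM in siCtrl and from 26.98 to 37.6 CPM in siNAT10, with a log2 fold change of -0.08 ± 0.11 (SE, edgeR adjusted p 0.78).

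**Figure D3:**
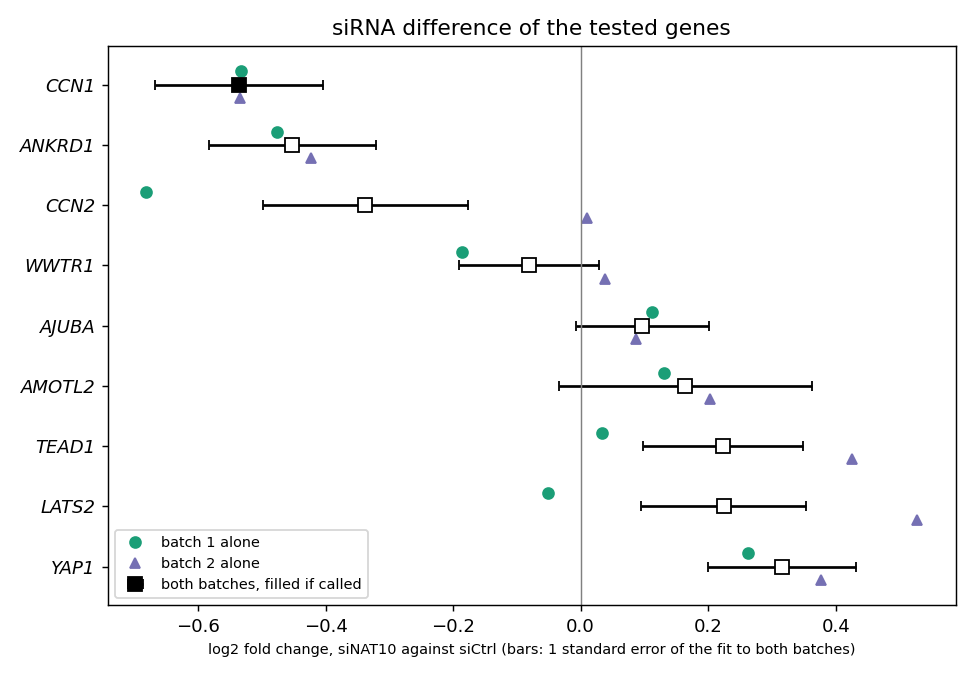
Log2 fold change of the 9 tested genes, siNAT10 against siCtrl, as squares with bars of 1 standard error for the fit to both batches, circles for batch 1 alone and triangles for batch 2 alone. CCN1 is the filled square, its batch estimates coincide at -0.53, and the batch estimates of CCN2 and LATS2 lie farthest apart.

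Next, the difference between the batches was set beside that of the siRNA, from the same fit. It was larger in size than the siRNA difference for 6 of the 9 genes. Higher in batch 2 were 5 genes, CCN1, CCN2, ANKRD1, AMOTL2 and AJUBA, and 1 was lower, WWTR1 (edgeR quasi-likelihood test, adjusted p under 0.05). Over all tested genes 25.3% were called between the batches, 13.0% higher and 12.2% lower in batch 2, and DESeq2 also called 6 of the 9, beside 26.4% of all genes. CCN1 had a log2 difference of 1.26 ± 0.13 (SE, edgeR adjusted p 9.5e-06), a mean of 128.9 CPM in batch 1 and 308.5 CPM in batch 2. AJUBA had a log2 difference of 1.05 ± 0.11 (SE, edgeR adjusted p 5.8e-06), from 35.1 to 72.6 CPM.

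The other called genes had smaller batch differences. CCN2 was higher in batch 2 by 0.87 on the log2 scale, AMOTL2 by 0.76 and ANKRD1 by 0.45 (edgeR adjusted p 0.0011, 0.010 and 0.020). WWTR1 had a log2 difference of -0.52 (edgeR adjusted p 0.0028), from 39.8 CPM in batch 1 to 27.8 CPM in batch 2. The libraries of the 2 batches did not overlap at all for 3 of the 9 genes, CCN1, AJUBA and WWTR1, beside 22.7% of all tested genes. YAP1, TEAD1 and LATS2 did not pass, with log2 differences of -0.06, 0.32 and -0.20. The ANKRD1 batch call was lost without siCtrl replicate 2 (edgeR adjusted p 0.071), siNAT10 replicate 1 (0.074) or siNAT10 replicate 3 (0.069), and that of AMOTL2 without siCtrl replicate 4 (0.054).

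**Figure D4:**
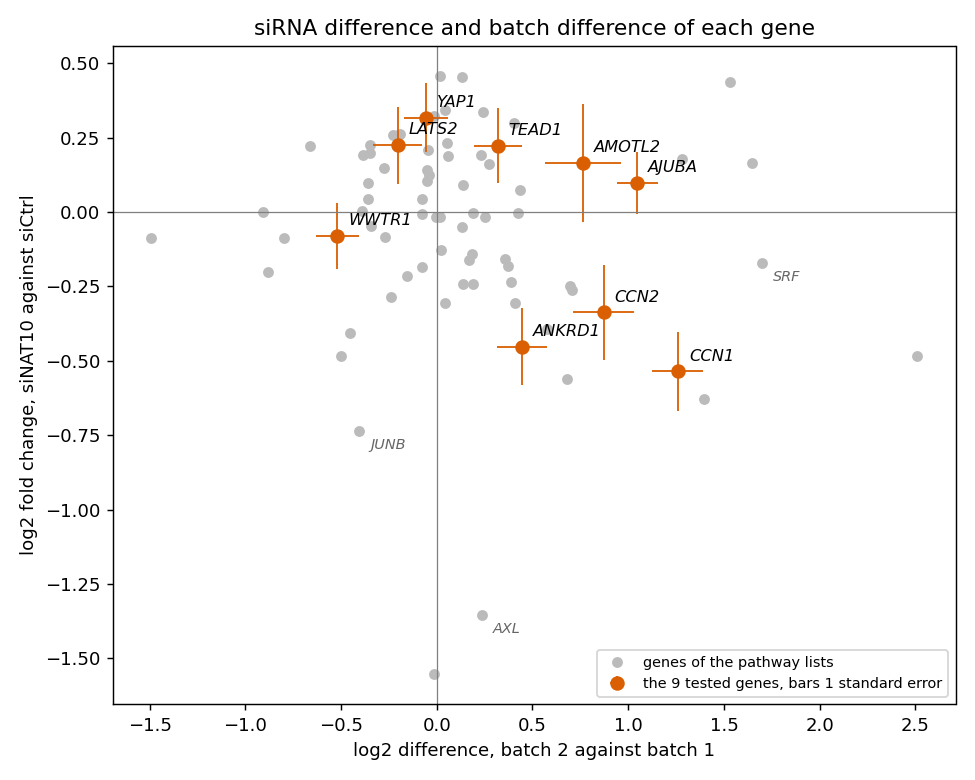
Log2 difference between the batches (horizontal axis) and log2 fold change between siNAT10 and siCtrl (vertical axis) for the 9 tested genes (orange, bars of 1 standard error) and the tested genes of the pathway lists (grey). CCN1, CCN2 and ANKRD1 lie at the lower right, higher in batch 2 and with negative siRNA estimates, and AJUBA and AMOTL2 lie right of 0 with siRNA estimates near 0.

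Other genes of the pathway were taken from 8 lists with 91 entries, also chosen with earlier results of these data known, and 69 were tested. Between siNAT10 and siCtrl 2 of the 69 were called lower and 0 higher (edgeR quasi-likelihood test), beside 1.46% and 0.816% of all tested genes. An unadjusted p under 0.05 was found for 16 (15.7% of all tested genes). DESeq2 called 7 (5.12% of all genes to which it gave an adjusted p), and some of the 69 had no DESeq2 adjusted p. The same shares belong beside the counts of each list below. With the replicate number as a block edgeR called 5, beside 3.28% of all tested genes. The 2 genes were AXL and JUNB, and the median log2 fold change of the 69 was -0.0056.

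Among 22 further YAP/TEAD targets 16 were tested and 1 was called by edgeR, beside 2.28% of all tested genes. AXL, a receptor tyrosine kinase, fell from 21.3, 23.5, 21.6 and 25.5 CPM in siCtrl to 8.32, 7.16, 9.02 and 12.1 CPM in siNAT10. Its estimate on the log2 scale was -1.35 ± 0.14 (SE, edgeR adjusted p 1.3e-04). It passed whichever of the 8 libraries was left out, and in batch 2 alone it did not pass (-1.15, edgeR adjusted p 0.16). In batch 2 alone 0 of 13433 tested genes passed, and NAT10 itself did not (-1.58, edgeR adjusted p 0.086). Of the other targets IGFBP3, an IGF-binding protein at 0.104 to 1.64 CPM, had an estimate of -1.55 on the log2 scale (edgeR adjusted p 0.15), while GADD45A and ASAP1 had 0.19 and 0.19. Estimates were negative for 10 of the 16 and positive for 6, with a median of -0.01. Between the batches 5 of the 16 were called higher in batch 2 and 2 lower, beside 13.0% and 12.2% of all tested genes (edgeR). EDN1, which encodes endothelin, had the largest estimate at 2.51 on the log2 scale, from 0.109 to 2.96 CPM across all libraries.

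Of 19 Hippo kinases and adaptors 17 were tested, 0 were called by edgeR, 1 had an unadjusted p under 0.05, and DESeq2 called 1. That gene was LATS1, the paralog of LATS2, with 15.05, 14.2, 13.4 and 17.6 CPM in siCtrl and 19.6, 19.1, 18.4 and 25.8 CPM in siNAT10. All siNAT10 values of LATS1 exceeded all siCtrl values, and its log2 fold change was 0.45 ± 0.13 (SE, edgeR adjusted p 0.088, 0.041 in DESeq2 and 0.039 in edgeR with the replicate block). Estimates were positive for 13 of the 17 and negative for 4, and their median was 0.19. The second largest positive estimate was that of MOB1B, a LATS coactivator, at 0.34, and the most negative was that of the kinase TAOK3 at -0.13. Without siNAT10 replicate 4 the median was 0.08, and without siCtrl replicate 3 it was 0.10.

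The TEAD paralogs were present beside TEAD1. TEAD2 stood at 84.8, 106.9, 69.8 and 68.8 CPM in siCtrl and 77.4, 65.98, 59.9 and 45.4 CPM in siNAT10, below both siCtrl libraries in each batch, with a log2 fold change of -0.41 ± 0.11 (SE, edgeR adjusted p 0.079, 0.038 in DESeq2). TEAD4 had a log2 fold change of 0.20 and TEAD3 of -0.09, and VGLL4, a TEAD corepressor, of 0.26. Of this list of 7 genes 4 were tested, 0 were called by edgeR, 2 had an unadjusted p under 0.05 and DESeq2 called 1. TEAD2, TEAD3 and TEAD4 were lower in batch 2, by 0.45, 0.80 and 0.35 on the log2 scale (edgeR adjusted p 0.0086, 2.6e-04 and 0.039). Over all tested genes 12.2% were called lower in batch 2.

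In the angiomotin and Ajuba families WTIP (0.30) and LIMD1 (0.0050) were tested and 0 were called by edgeR or DESeq2, with 1 at an unadjusted p under 0.05. AMOT reached at most 0.471 CPM. No other CCN gene was tested, since CCN3, CCN4, CCN5 and CCN6 reached at most 0.627 CPM. CCN5 had 38 counts over all libraries, CCN6 had 1, and CCN3 and CCN4 were at 0. Of 10 receptors for CCN proteins 7 were tested, 0 were called by edgeR or DESeq2, and 1 had an unadjusted p under 0.05. ITGA6, an integrin alpha chain, had the largest positive log2 fold change at 0.32 (edgeR adjusted p 0.15), and ITGB5 and ITGB2, integrin beta chains, had the largest negative ones at -0.24 and -0.24.

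CCN1, CCN2 and ANKRD1 are also known targets of serum response factor and its MRTF cofactors, and CCN1 is an immediate-early gene. Of 16 genes of the SRF/MRTF list 14 were tested, and 0 were called by edgeR (2.28% of all tested genes were). In edgeR 5 had an unadjusted p under 0.05 (15.7% of all tested genes), and 1 was called by DESeq2 (5.12%). That gene was TAGLN, an actin-binding protein, whose estimate was -0.56 on the log2 scale (edgeR adjusted p 0.062, 0.022 in DESeq2 and 0.019 in edgeR with the replicate block). Estimates were negative for 11 of the 14, and the median was -0.18. Between the batches 6 were called higher in batch 2 and 1 lower, beside 13.0% and 12.2% of all tested genes (edgeR). SRF itself stood at 147 to 179 CPM in batch 1 and 345 to 712 CPM in batch 2, a log2 difference of 1.70.

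Of 10 immediate-early genes 9 were tested and 1 was called by edgeR, beside 2.28% of all tested genes. JUNB, an AP-1 subunit, fell from 93.9, 110.4, 85.4 and 96.2 CPM in siCtrl to 80.3, 64.1, 37.7 and 54.5 CPM in siNAT10, without overlap. The estimate on the log2 scale was -0.74 ± 0.14 (SE, edgeR adjusted p 0.011). Its call was lost without siNAT10 replicate 2 (edgeR adjusted p 0.062), in batch 1 alone (0.10), in batch 2 alone (0.20) and without the batch term (0.31). No gene of the table passed in batch 2 alone. For MYC, a growth-promoting transcription factor, the estimate was 0.46 on the log2 scale (edgeR adjusted p 0.083, 0.035 in DESeq2 and 0.040 in edgeR with the replicate block), and FOS was lower in batch 2 by a log2 difference of -1.49.

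Finally, the genes whose pattern was most like that of CCN1 were listed, by Pearson correlation of log2 CPM over the 8 libraries after each batch mean was subtracted, among 8458 genes with a mean of at least 8 CPM. They were KIAA1191 (r = 0.99, Spearman rho 1.00), SEPTIN2 (0.98 and 1.00), HMGB1 (0.98 and 0.98), ZCCHC10 (0.98 and 0.95) and TGFB1I1 (0.97 and 0.95). None of these 5 was called between siNAT10 and siCtrl, with log2 fold changes from -0.38 to -0.18 (edgeR adjusted p from 0.11 to 0.41). Within the pathway genes, CCN2 had an r of 0.63 with CCN1 and ANKRD1 of 0.37, while TEAD1 had -0.77, LATS2 -0.56 and YAP1 -0.50. AMOTL2 had -0.21, AJUBA -0.10 and WWTR1 0.08. The siRNA difference was left in these correlations, so they partly restate the log2 fold changes given above. The 5 listed genes were picked for their high r, so the size of r gives no support. The 8 points share their libraries and depth, and these values describe these libraries only.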

How the data were processed

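For these 3' end libraries the submitters' processing notes name Trim Galore 0.6.10, cutadapt 3.5, STAR 2.7.9a, featureCounts and GRCh38. The deposited values are raw counts per gene, made by the authors, with 0 columns unused. The annotation, strand setting and treatment of multi-mapping reads are not given in the sources used here. The kit orientation is given differently in the series text and the sample protocols. GENCODE 44 matched 61458 of 86369 identifiers.

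Genes were kept by filterByExpr (minimum count 10), scaled by TMM and tested with the edgeR 4.0.16 quasi-likelihood test in R 4.3.3, with batch and siRNA as terms and Benjamini-Hochberg adjustment over all 13840 tested genes. Standard errors come from the F statistic. The fit was tested on simulated data that held no batch effect, unlike these libraries. There it called 40% of 50 genes with a true log2 change of 0.5 and 30.4% of 46 genes with -0.5. Of 13454 genes without a change it called 3. A gene that did not pass may therefore still differ by that much. Alternatives included DESeq2 1.42.0, which gave 11693 of these genes an adjusted p between the siRNA groups, other scalings and filters, each batch alone, each library left out and a replicate block. Same-numbered libraries deviated together (correlations across genes of 0.39, 0.38, 0.45 and 0.36 for replicates 1 to 4), which met the rule for pairing, and differently numbered libraries of a batch did so too (0.14 to 0.50), so the deviation is largely shared by batch. Between the 2 libraries of a group in a batch, chi-square per degree of freedom ran from 15.8 to 26.9, above counting noise. With no molecular identifiers named, depth speaks for counting error only.

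The genes and lists were chosen with earlier results of these data known. Named were the 10 genes, list genes that were called, and otherwise the 2 largest estimates in each direction per list. SRF, EDN1 and FOS fall outside this rule and were chosen for their batch differences after their values were seen, and ZYX and untested genes are given by level only. The genes most like CCN1 were the 5 with the highest correlation.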

Additional observations from a re-analysis of the deposited data

How the results depend on the processing

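The estimate for CCN1 was negative in all 17 alternative fits, and its call held in 7 of them. The call was lost with RLE size factors (-0.53), in batch 1 alone (-0.53), in batch 2 alone (-0.53) and without the batch term (-0.54), and leaving out 1 library gave -0.63 to -0.42. The number of genes called among the 9 was 2 with DESeq2, 2 without a filter on low counts, 0 with RLE size factors, 0 in batch 2 alone, 0 without the batch term and 0 to 2 with 1 library left out. In batch 1 alone it was 1, CCN2 in place of CCN1. For the pathway lists, 2 in the fit with batch, it was 7 with DESeq2, 7 without a filter, 5 with the replicate block, 1 in batch 1 alone, 0 in batch 2 alone, 1 without the batch term and 2 to 3 with 1 library left out. The replicate block changed no call among the 9 genes and gave -0.53 for CCN1 (edgeR adjusted p 0.037). Signs differed for LATS2 in batch 1 alone (-0.051), CCN2 in batch 2 alone (0.0097), WWTR1 in batch 2 alone (0.038) and the batch difference of YAP1, which ran from -0.14 to 0.045 with 1 library left out. Of all tested genes 315 were called, against 599 with DESeq2, 595 without a filter, 173 in batch 1 alone, 0 in batch 2 alone, 15 without the batch term and 75 (without siNAT10 replicate 2) to 286 with 1 library left out. The count of genes with a TEAD core was 3 with the 7-base motif GGAATGT in place of 6. The cause of these differences was not tested. With library size alone the median of all tested genes was 0.04, and CCN1 stayed called at -0.50. Depth limits AMOTL1, with 0 to 4 counts per library, and AMOTL2.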

Other observations

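The 3' UTRs of the canonical GENCODE 44 transcripts were searched for GTCTCTA and TTACAAA, 2 heptamers taken from earlier work on these data, so that they give no independent support. Of 10885 tested genes with a 3' UTR, 15.4% held GTCTCTA, with a median log2 fold change of -0.06 beside 0.0079 for the others, and 21.1% held TTACAAA, with 0.06 beside -0.02. The 3' UTRs with a heptamer were also longer, with medians of 3232 and 3110 bases beside 1083 and 983. Neither heptamer was in the 3' UTR of CCN1, CCN2, ANKRD1, LATS2 or WWTR1. GTCTCTA was in TEAD1 and in the untested AMOTL1. TTACAAA was also in the untested AMOTL1 and, among the tested genes, in YAP1, TEAD1, AMOTL2 and AJUBA. For these 4 tested genes, all with positive estimates, the first site is shown 5' to 3' with the heptamer in capitals.

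YAP1: ttccccccaaTTACAAAatctaagtat

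TEAD1: tgaacaggtaTTACAAAggaagaaaac

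AMOTL2: tgtgcattgtTTACAAAgcaaaaagaa

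AJUBA: caatattcctTTACAAAttaaatgcct

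The log2 fold changes of these 4 genes ran from 0.10 to 0.32, none of them called, and their 3' UTRs from 2266 to 7515 bases. The 5 tested genes without TTACAAA ran from -0.54 to 0.22, with 3' UTRs of 770 to 3570 bases. The difference was seen in the data and was not tested.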
